A study of Mus musculus with 14 samples.

Results

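The 37 genes of the mouse mitochondrial genome were examined in nestin-expressing bone marrow stromal cells from leukemic and normal mice. Members were all rows of the deposited count table whose symbol begins with mt-, which were 37 of 27099 rows. They comprised 13 protein genes, 2 rRNA genes and 22 tRNA genes. The samples were 14 RNA-seq libraries of Nes-GFP+ cells from crushed bone, sorted as negative for CD45, CD31 and DAPI and split by low or high GFP. The study's methods add Ter119, a red cell marker, to the negative gate, whereas the labels give lysis of red cells and no Ter119. Leukemic mice (AML) carried a doxycycline-inducible MLL-AF9 transgene with its rtTA activator, received doxycycline and were killed when leukemia was evident. Normal mice were given sucrose vehicle per the study's methods, so MLL-AF9 leukemia and doxycycline, a known inhibitor of mitochondrial translation, cannot be told apart. The groups were AML Nes-GFP low (n = 4), normal Nes-GFP low (n = 6), AML Nes-GFP high (n = 2) and normal Nes-GFP high (n = 2). Mice were young adults of either sex, some libraries came from a single mouse and others from pooled mice, and no source used here tied libraries to animals. The p-values therefore measure the spread between these samples, which may be partly technical.

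Mitochondrial DNA is a small circle transcribed from both strands into long precursors, which are cut at the tRNAs that punctuate them. The heavy-strand precursor gives both rRNAs and all but one of the mRNAs, and the light strand gives mt-Nd6 and several tRNAs. The proteins are core subunits of respiratory complexes I, III and IV and of ATP synthase, whose remaining subunits are encoded in the nucleus. Complex II is entirely nuclear.

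Several of these genes have nuclear copies that also hold counts, and this sets how each level can be read. A block on chromosome 1 (GRCm38), chr1:24611535-24616197 on the minus strand, holds 7 pseudogenes that are at least 99.71% identical to a mitochondrial mRNA over their aligned bases, 5 of them at 100%. The start of mt-Co3, the start of mt-Nd3 and a stretch of mt-Co1 are shown beside their copies, because they show how little separates gene from copy. Each is written 5′ to 3′ in the gene's sense, with bases that differ from the partner in capitals, from GENCODE M21 transcripts.
mt-Co3, chrM:8607-8666, plus strand: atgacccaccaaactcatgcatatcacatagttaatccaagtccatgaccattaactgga
Gm28437, chr1:24613912-24613971, minus strand: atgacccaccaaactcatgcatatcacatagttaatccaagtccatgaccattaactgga
mt-Nd3, chrM:9459-9518, plus strand: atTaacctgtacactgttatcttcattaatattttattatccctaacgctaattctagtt
Gm28438, chr1:24613060-24613119, minus strand: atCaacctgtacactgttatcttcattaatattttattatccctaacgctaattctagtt
mt-Co1, chrM:6390-6449, plus strand: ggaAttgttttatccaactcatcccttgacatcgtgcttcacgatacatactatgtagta
Gm29216, chr1:24616129-24616188, minus strand: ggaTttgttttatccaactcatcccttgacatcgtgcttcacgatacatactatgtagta
Counted from 1 at the first base of the mitochondrial gene, the substitutions were T3C in Gm28438 and A1066T in Gm29216.

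The copies that match a whole gene held about as many counts as the gene itself. Gm28437 had a median of 49.9% of the summed mt-Co3 and Gm28437 counts over the 14 libraries (range 49.4% to 51.0%). The shares were 51.4% for Gm10925 against mt-Atp6, 49.6% for Gm28661 against mt-Co2, 50.2% for Gm10222 against mt-Nd4l and 47.7% for Gm28438 against mt-Nd3. Gm28439 matches 876 of the 1378 bases of mt-Nd4 and held 29.6%, and Gm29216 matches bases 1063 to 1545 of mt-Co1 and held from 19.3% to 28.8%. The levels of these 7 mitochondrial genes are therefore uncertain, and reads of the gene and the copy cannot be told apart where the sequences are identical. Another 10 rows were less alike (88.6% to 97.6%). Of these, Gm13340 held a median of 14.2% against mt-Co1 and Gm13341 21.7% against mt-Co2. Adding the copies' counts to their genes changed no call below.

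The libraries held 5615941 to 11436652 counts. Mitochondrial genes took 1.61% to 3.95% of them, and both extremes were AML Nes-GFP low libraries. In AML Nes-GFP low the shares were 2.32%, 1.61%, 1.98% and 3.95%, and in normal Nes-GFP low they ran from 2.16% to 3.40% with a median of 2.51%. In Nes-GFP high they were 2.43% and 2.12% in AML and 3.20% and 2.20% in normal. The groups overlapped in both populations. AML low replicate 4 had both the highest share and the lowest depth. Normal high replicate 1 stood apart in the number of genes with a count, 14842 against 18177 to 20197 in the other 13 libraries. Because these are bulk samples, fewer cells of a type and less RNA per cell cannot be told apart.

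**Figure D1:**
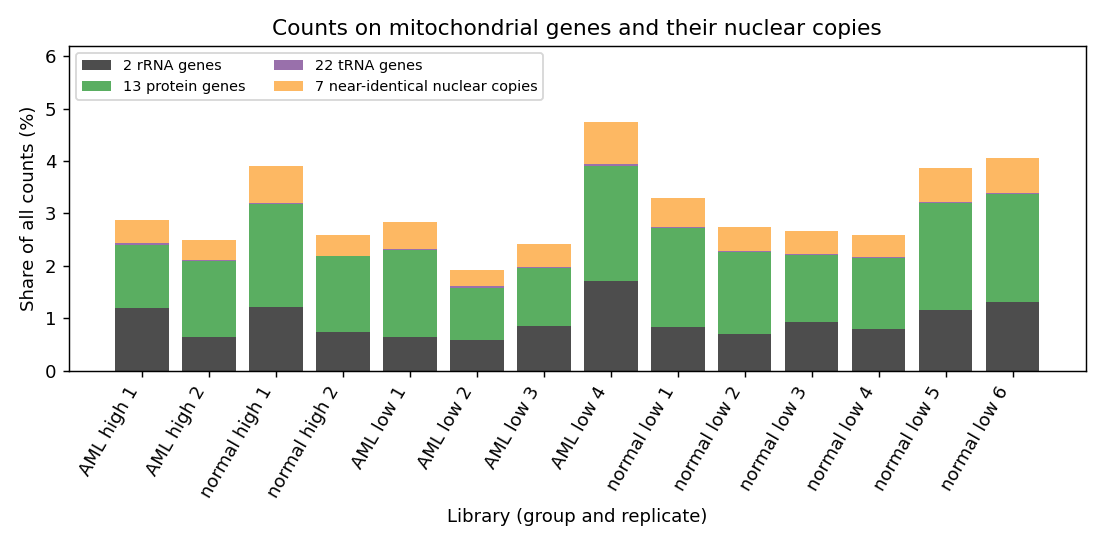
Stacked bars give the share of all counts (%) in each of the 14 libraries that fell on the mitochondrial rRNA, protein and tRNA genes, with the 7 near-identical nuclear copies on top. The mitochondrial share without the copies ran from 1.61% in AML low replicate 2 to 3.95% in AML low replicate 4.

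The sorted cells also differed in markers of other cells, although the gate was against blood and endothelial cells. The summed level of 12 stromal markers ran from 8115 to 41439 CPM (counts scaled to library size) in AML Nes-GFP high and from 52219 to 86193 CPM in normal Nes-GFP high. It ran from 1381 to 36703 CPM in AML Nes-GFP low and from 8081 to 66776 CPM in normal Nes-GFP low. The 12 myeloid markers summed to 2067 to 11483 CPM and 1524 to 33195 CPM in the high groups, AML first, and to 6667 to 102123 CPM and 678 to 103530 CPM in the low groups. The 9 erythroid markers found summed to 8.60 to 40.4 CPM and 106 to 2681 CPM in the high groups, and to 12.6 to 2511 CPM and 371 to 3629 CPM in the low groups. The 9 lymphoid markers summed to 5.31 to 10.4 CPM and 28.6 to 367 CPM in the high groups, and to 59.8 to 274 CPM and 56.2 to 2666 CPM in the low groups, AML first. Averaged over both populations DESeq2 called 7 of 9 erythroid and 4 of 9 lymphoid markers lower in AML, against 6.34% of all genes called in either direction. The edgeR test called 0 of either list, with 7 and 6 at an unadjusted p under 0.05, against 12.6% of all genes. The 6 perivascular markers summed to 336 to 420 CPM and 221 to 985 CPM in the high groups, AML first. In the low groups they summed to 29.7 to 216 CPM and 50.7 to 111 CPM, so every Nes-GFP high library lay above every low one. Over all libraries the 5 endothelial markers found summed to 1.74 to 75.8 CPM and the 11 immediate early genes to 3065 to 29125 CPM. No listed marker in the table was at 0 in all 14 libraries. The part of these cells in the mitochondrial levels was not tested.

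By counts per kilobase, mt-Rnr2, the large ribosomal RNA, had the highest mean of the 15 rRNA and protein genes. Its mean over 14 libraries was 5549 CPM per kb, and mt-Cytb, the complex III subunit cytochrome b, followed at 3838 and mt-Co1, the catalytic subunit of complex IV, at 2880. The lowest were mt-Nd2 at 303, mt-Nd6 at 221 and mt-Nd3 at 49.3 CPM per kb. With the 7 near-identical copies added, mt-Atp6 moved from rank 4 to rank 2 at 4171 CPM per kb, and mt-Nd3 stayed lowest at 94.9. How reads that match both gene and copy were counted is not given, so this sum may count some reads at both places. Neighbouring genes in this order overlapped over libraries, as the plot of levels shows. mt-Rnr1, the small ribosomal RNA, had a mean of 692 CPM per kb, although both rRNAs are cut from 1 precursor. The libraries were primed with oligo-dT, so levels of rRNA and tRNA reflect capture as well as abundance.

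**Figure D2:**
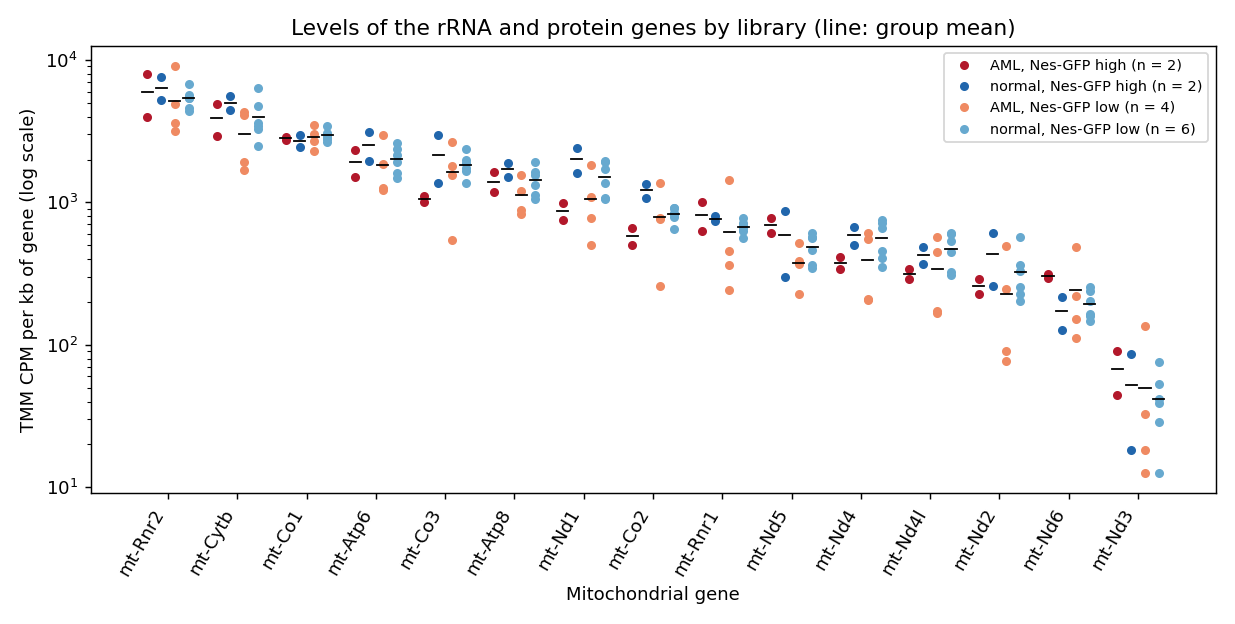
Points give the level in each library as TMM-normalized CPM per kilobase of gene (log scale) for the 15 rRNA and protein genes, coloured by group, with lines at group means. mt-Co1 has the narrowest band, from 3524 to 5400.3 CPM before scaling by length.

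Whether leukemia went with a different mitochondrial transcript level was asked first in Nes-GFP low cells. No mitochondrial gene passed edgeR's quasi-likelihood test (Benjamini-Hochberg adjusted p under 0.05), with 0 of 19 tested members called against 0% of all 18152 genes tested. At an unadjusted p under 0.05 there were also 0 members, against 5.54% of all genes. DESeq2 called 0 members and 0.65% of all genes, with 0 members against 5.8% at an unadjusted p under 0.05. The median log2 fold change, AML over normal, was -0.36 over the 13 mRNAs, of which 2 lay above 0, and 0.00 over all genes. Without AML low replicate 4 that median was -0.54 with 0 of 13 above 0. Without AML low replicate 2 it was -0.23 with 6 above 0. It was -0.19 without AML low replicate 3 and -0.22 without normal low replicate 1, each with 2 above 0.

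Complex I has the most mitochondrial subunits, 7 in all. mt-Nd1, a membrane-arm subunit next to the quinone site, was at 1050.2, 478, 741 and 1766 CPM in AML Nes-GFP low, and at 1010.1 to 1871 CPM with a median of 1474 in normal Nes-GFP low. The groups overlapped, and the log2 fold change was -0.52 ± 0.37 (SE), with a 95% interval of -1.32 to 0.27. It was -0.29 without AML low replicate 2 and -0.92 without AML low replicate 4. mt-Nd2 and mt-Nd4, membrane-arm subunits thought to pump protons, had log2 fold changes of -0.52 ± 0.54 and -0.50 ± 0.40. For mt-Nd2 it was -1.22 without AML low replicate 4, and -0.23, -0.26 and -0.29 without AML low replicate 2, AML low replicate 3 and normal low replicate 6. For mt-Nd4 it was -0.77 and -0.78 without AML low replicates 1 and 4, and -0.29 without AML low replicate 2 or 3. mt-Nd5 and mt-Nd4l, also of the membrane arm, were at -0.37 ± 0.35 and -0.47 ± 0.44. Without AML low replicate 3 these were -0.19 and -0.25, and mt-Nd4l was -0.25 and -0.82 without AML low replicates 2 and 4. mt-Nd3 and mt-Nd6 were the protein genes above 0, at 0.25 ± 0.79 and 0.32 ± 0.43. Without AML low replicate 4 mt-Nd3 became -0.95 and mt-Nd6 -0.24.

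In the other complexes the differences were smaller than their intervals too. mt-Cytb was at -0.41 ± 0.35, and at -0.65, -0.24, -0.21 and -0.62 without AML low replicates 1, 2, 3 and 4 in turn and -0.22 without normal low replicate 1. mt-Co1 was at 4646, 3524, 4176 and 5400.3 CPM in AML Nes-GFP low and from 4122 to 5313 CPM in normal Nes-GFP low, with a median of 4503. Its log2 fold change was -0.05 ± 0.20, with a 95% interval of -0.48 to 0.39. The other complex IV subunits, mt-Co2 and mt-Co3, were at -0.05 ± 0.38 and -0.17 ± 0.38, and the ATP synthase subunits mt-Atp6 and mt-Atp8 were at -0.15 ± 0.33 and -0.36 ± 0.32, the latter at -0.24 without AML low replicate 2. The rRNAs were close to 0, at -0.06 ± 0.31 for mt-Rnr2 and -0.10 ± 0.43 for mt-Rnr1. mt-Rnr1 was at 349, 233, 438 and 1365 CPM in AML Nes-GFP low and from 533 to 736 CPM in normal Nes-GFP low. Thus 3 AML libraries lay below the normal range of mt-Rnr1 and 1 lay above it.

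In Nes-GFP high cells, with 2 libraries a group, edgeR again called 0 of 19 members, against 0% of all genes. At an unadjusted p under 0.05 there were 0 members, against 12.2% of all genes. DESeq2 called 0 members, against 8.78% of all genes, and gave 2 (mt-Nd1 and mt-Co2) an unadjusted p under 0.05, against 18.6%. The median log2 fold change was -0.40 over the 13 mRNAs, of which 4 lay above 0, and 0.08 over all genes. Without normal high replicate 1 it was -0.22, and without AML high replicate 2 it was -0.61.

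mt-Nd1 had the lowest fold change of the members in Nes-GFP high. The AML libraries were at 718 and 945 CPM, and the normal libraries at 1541 and 2312 CPM. The groups did not overlap, the log2 fold change was -1.21 ± 0.57 and the adjusted p was 0.419 by edgeR. Its 95% interval was -2.45 to 0.02. All AML libraries lay below all normal libraries for 5 of 19 members (mt-Nd1, mt-Co2, mt-Co3, mt-Nd4 and mt-Nd4l), against 11.5% of all genes. They lay above them for 2 members (mt-Nd6 and mt-Te, the tRNA for glutamate, named after its values were seen), against 16% of all genes.

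mt-Co2 was at 452 and 343 CPM in the AML libraries and at 926 and 736 CPM in the normal libraries, a log2 fold change of -1.06 ± 0.59 with adjusted p = 0.477 by edgeR. mt-Co3 was at 784 and 863 CPM against 2328 and 1068 CPM, a log2 fold change of -1.04 ± 0.60 with adjusted p = 0.494 by edgeR. Without normal high replicate 1 the mt-Co3 value was -0.26. The third complex IV subunit, mt-Co1, had AML libraries at 4419 and 4269.7 CPM and normal libraries at 4596 and 3773 CPM, and its log2 fold change was 0.05 ± 0.31, or -0.02 with DESeq2 size factors. Within complex IV, mt-Co1 overlapped between the groups while mt-Co2 and mt-Co3 did not. With 2 libraries a group, 11.5% of all genes lay below in AML without overlap. mt-Nd6, whose gene is on the light strand, had AML libraries at 164 and 153 CPM and normal libraries at 66.4 and 113 CPM. Its log2 fold change was 0.82 ± 0.68. Because the libraries record no strand, its reads and those of the opposite strand cannot be told apart.

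The remaining members in Nes-GFP high had intervals that spanned 0. For complex I the log2 fold changes were -0.75 ± 0.83 for mt-Nd2, -0.64 ± 0.61 for mt-Nd4, -0.45 ± 0.67 for mt-Nd4l, 0.24 ± 0.54 for mt-Nd5 and 0.38 ± 1.24 for mt-Nd3. They were -0.35 ± 0.54 for mt-Cytb, -0.40 ± 0.51 for mt-Atp6 and -0.28 ± 0.49 for mt-Atp8. They were -0.09 ± 0.49 for mt-Rnr2 and 0.10 ± 0.67 for mt-Rnr1. Without normal high replicate 1 they were -1.13 for mt-Nd2, -0.29 for mt-Nd4, -0.06 for mt-Cytb and 0.00 for mt-Atp8, and without normal high replicate 2 they were -0.05 for mt-Nd2, -0.28 for mt-Nd4l, -0.55 for mt-Cytb and -0.49 for mt-Atp8. Without AML high replicate 1 mt-Cytb was at -0.04 and mt-Atp8 at -0.56, and without AML high replicate 2 they were at -0.81 and -0.12.

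**Figure D3:**
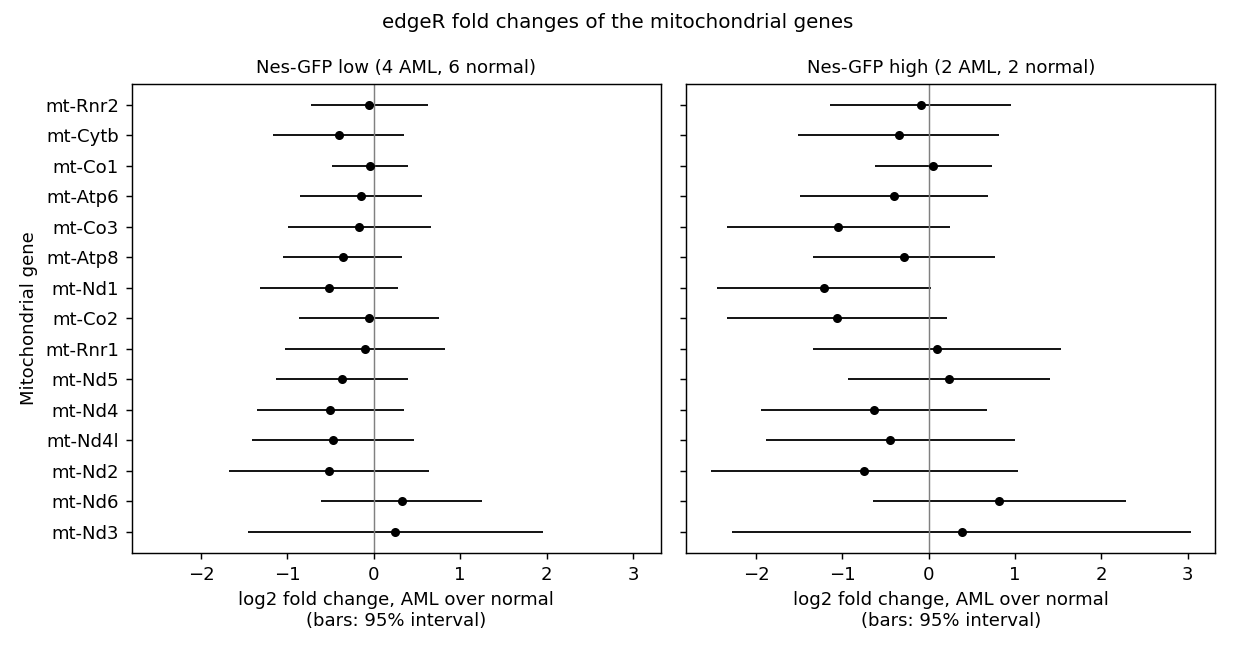
Points give the edgeR log2 fold change of AML over normal for each rRNA and protein gene, with bars for the 95% interval, in Nes-GFP low cells at left and Nes-GFP high cells at right. Each interval spans 0, and mt-Nd1 in Nes-GFP high comes nearest to leaving it out, at -2.45 to 0.02.

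Averaged over both populations, 1 of 19 members had an unadjusted p under 0.05, against 12.6% of all genes, and 0 passed the adjusted threshold, against 0%. The member was mt-Nd1, with a log2 fold change of -0.87 ± 0.34, unadjusted p = 0.0242 and adjusted p = 0.332 by edgeR. DESeq2 called 0 members, against 6.34% of all genes, and gave mt-Nd1 a log2 fold change of -0.92 and an adjusted p of 0.0888. At an unadjusted p under 0.05 it held 2 members (mt-Nd1 and mt-Te), against 16.9%. The AML effect in Nes-GFP high did not differ from that in Nes-GFP low past the threshold for any of the 19 members by edgeR (0% of all genes) or DESeq2 (4.23%). At an unadjusted p under 0.05 there were 0 members by edgeR, against 9.96%, and 0 by DESeq2, against 14.4%. For mt-Nd1 that difference was -0.69 on the log2 scale, with a 95% interval of -2.14 to 0.76.

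Nes-GFP high and low cells were compared next. The edgeR test called 0 of 19 members in normal mice, in AML mice and averaged over both, against 0% of all genes in each. No member had an unadjusted p under 0.05 by edgeR, against 11.2%, 8.97% and 16.4% of all genes. DESeq2 called 0 members, against 9.57%, 6% and 10.9%. At an unadjusted p under 0.05 DESeq2 held 0, 0 and 1 (mt-Tq), against 18.8%, 15.2% and 21.4%. Averaged over AML and normal, mt-Nd5 had a log2 fold change of 0.58 ± 0.32, high over low. Without normal high replicate 2 it was 0.14. In AML mice it was at 1106.5 and 1426 CPM in Nes-GFP high and at 708, 677, 417 and 941 CPM in Nes-GFP low, so the groups did not overlap. In normal mice it was at 549 and 1597 CPM in Nes-GFP high and from 633 to 1107 CPM in Nes-GFP low, where the groups overlapped. In AML mice all Nes-GFP high libraries lay above all Nes-GFP low libraries for 2 of 19 members (mt-Nd5 and mt-Tq), against 6.91% of all genes, and below for 0, against 8.83%. In normal mice they lay above for 1 member (mt-Co2), against 3.47%, and below for 0, against 7.86%. The median over the 13 mRNAs in the averaged comparison was 0.08, and over all genes it was -0.31.

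Among the tRNAs, mt-Ts1 held 95.3% to 98.6% of the counts. It encodes a serine tRNA on the light strand at chrM:6870-6938 and shares 3 bases with the 3′ end of mt-Co1 on the other strand. Its gene and the opposite strand are shown because the libraries do not record strand, so either could be the source of the reads.
mt-Ts1, minus strand: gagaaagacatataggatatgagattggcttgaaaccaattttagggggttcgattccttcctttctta
mt-Ts1 complement, plus strand: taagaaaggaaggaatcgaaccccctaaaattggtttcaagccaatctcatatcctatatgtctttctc
Reads of mt-Ts1 and of an mt-Co1 transcript that runs past its annotated end cannot be told apart. The counts of mt-Ts1 were 3.51% to 7.34% of those of mt-Co1.

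mt-Ts1 was at 202, 207, 211 and 313 CPM in AML Nes-GFP low and from 180 to 199 CPM in normal Nes-GFP low, with a median of 189. All 4 AML libraries lay above all 6 normal libraries, as they did for 1 of 19 members and for 0.441% of all genes. The log2 fold change was 0.30 ± 0.29, with adjusted p = 0.9999 by edgeR, and it was 0.15 without AML low replicate 4. In Nes-GFP high the AML libraries were at 324 and 212 CPM and the normal libraries at 236 and 162 CPM, which overlapped. The ratio of Gm29216, which matches only the 3′ part of mt-Co1, to mt-Co1 was 0.269, 0.333, 0.312 and 0.316 in AML Nes-GFP low and from 0.24 to 0.28 in normal. It was 0.405 and 0.312 in AML Nes-GFP high and 0.285 and 0.284 in normal. Whether 3′ coverage of mt-Co1 has a part in the mt-Ts1 values was not tested.

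The other 21 tRNA genes together held 16 to 100 counts a library. Of these, mt-Te, mt-Tq and mt-Tp, all on the light strand and named after their values were seen, passed the filter on low counts. Their reads and those of the opposite strand cannot be told apart either. mt-Te had 0 to 44 counts and a log2 fold change, AML over normal averaged over both populations, of 1.92 ± 0.94 with adjusted p = 0.42 by edgeR. The other normal Nes-GFP high library had no count of it, and without normal high replicate 1 the fitted value was 4.53. The 14 heavy-strand tRNAs summed to 1 to 32 counts a library, so differences in them were not detectable at this depth.

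Ratios between members do not depend on library size. Each of 6 pairs was compared in 3 ways by two-sided exact permutation tests, 18 tests in all, and 0 passed after adjustment. The smallest adjusted p was 0.309. Relabeling allowed a smallest p of 0.00476 in Nes-GFP low, 0.000794 within both populations and 0.00238 for high against low.

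mt-Nd6 over mt-Nd5, genes on opposite strands that share 14 bases, had the smallest p. With no strand recorded, reads of mt-Nd6 and of the strand opposite it cannot be told apart. The ratio was 0.111, 0.169, 0.139 and 0.269 in AML Nes-GFP low and from 0.1 to 0.13 with a median of 0.116 in normal Nes-GFP low. It was higher than every normal library in 3 of 4 AML libraries. The difference of the log2 ratios was 0.52, with exact permutation p = 0.0333 and adjusted p = 0.309, and it was 0.27 without AML low replicate 4. Within both populations the difference was 0.48, with exact permutation p = 0.0468 and adjusted p = 0.309, and it was 0.29 without normal high replicate 2. In Nes-GFP high the ratio was 0.149 and 0.107 in AML and 0.121 and 0.071 in normal, which overlapped.

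mt-Rnr2 over mt-Nd1, neighbours on the heavy-strand precursor, was 5.43, 10.6, 10.4 and 8.09 in AML Nes-GFP low and from 4.8 to 8.45 in normal. It was 17.6 and 6.65 in AML Nes-GFP high and 7.76 and 3.56 in normal. Within both populations the log2 difference was 0.76, with exact permutation p = 0.0762 and adjusted p = 0.309, and it was 0.41 without AML high replicate 1 and 0.48 without normal high replicate 2. mt-Co1 over mt-Co3 was 5.64 and 4.95 in AML Nes-GFP high and 1.97 and 3.53 in normal, without overlap. Within both populations its log2 difference was 0.65, with exact permutation p = 0.0738 and adjusted p = 0.309. The groups of mt-Rnr1 over mt-Rnr2 overlapped in both populations, with a log2 difference of -0.03 and exact permutation p = 0.886. For mt-Nd1 over mt-Cytb the difference within both populations was -0.49 (exact permutation p = 0.138, adjusted p = 0.414), and for mt-Atp6 over mt-Co3 it was 0.34 (exact permutation p = 0.264, adjusted p = 0.474). The former was -0.26 without normal high replicate 2, and the latter was 0.15, 0.53 and 0.19 without AML high replicate 1, AML high replicate 2 and AML low replicate 2.

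**Figure D4:**
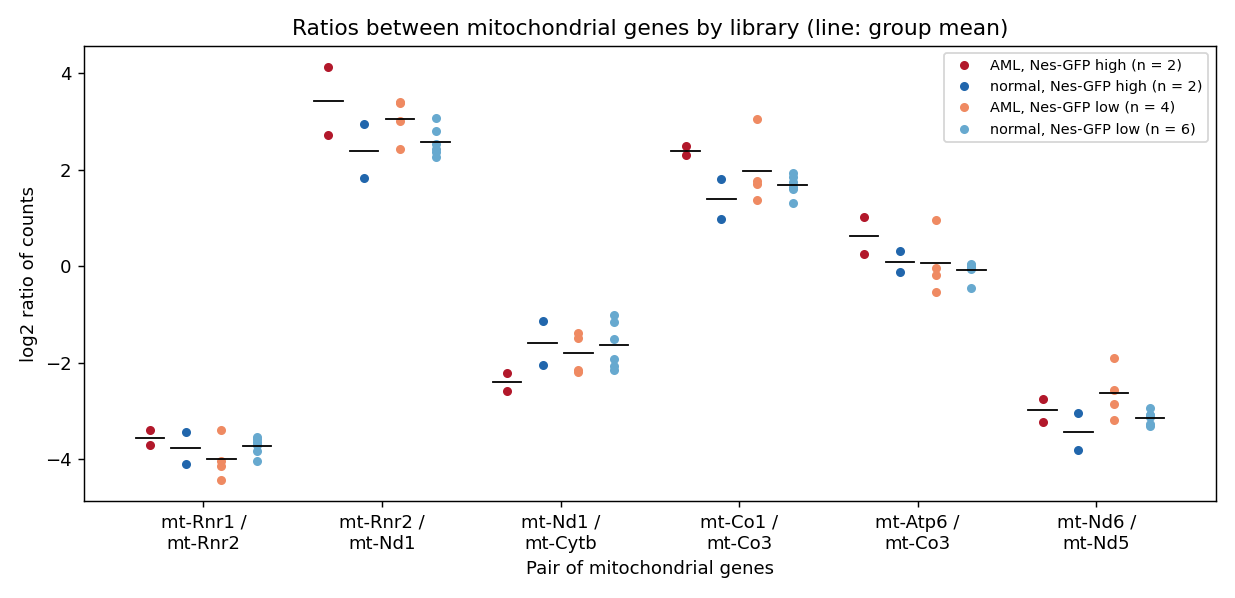
Points give the log2 ratio of counts for 6 pairs of mitochondrial genes in each of the 14 libraries, coloured by group, with lines at group means. For mt-Nd6 over mt-Nd5, 3 of 4 AML Nes-GFP low libraries lie above all normal Nes-GFP low libraries.

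The nuclear partners of these genes were examined beside them. Of 77 nuclear subunits of complexes I to V, edgeR called 0 in either population, against 0% of all genes in each. In Nes-GFP low 0 had an unadjusted p under 0.05 by edgeR, against 5.54% of all genes, and DESeq2 called 0, against 0.65%. The median log2 fold change there was 0.08 with 42 above 0. In Nes-GFP high 3 had an unadjusted p under 0.05 by edgeR, against 12.2% of all genes. DESeq2 called 1 higher and 2 lower in AML, against 8.78% of all genes. The higher one was a complex I subunit, and the lower ones were 1 subunit of complex II and 1 of complex III. The median was -0.13 with 31 above 0. Uqcrc1, a core subunit of complex III, was at 69.5 and 144 CPM in AML Nes-GFP high and 507 and 465 CPM in normal, a log2 fold change of -2.19 ± 0.67 with adjusted p = 0.279 by edgeR. Sdhb, the iron-sulfur subunit of complex II, was at 105 and 130.5 CPM against 408 and 271 CPM, at -1.53 ± 0.60 with adjusted p = 0.361 by edgeR. In Nes-GFP low the smallest p-values were those of Atp5l, an ATP synthase subunit, at 0.69 ± 0.43 and Sdhc, a complex II membrane anchor, at -0.59 ± 0.42.

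Of 33 nuclear genes that transcribe, process or stabilize mitochondrial RNA, edgeR called 0 in either population, against 0% of all genes in each. In Nes-GFP low 0 had an unadjusted p under 0.05 by edgeR, against 5.54% of all genes, and DESeq2 called 0, against 0.65%. The median there was -0.41 with 10 above 0. In Nes-GFP high 6 had an unadjusted p under 0.05, against 12.2% of all genes, and DESeq2 called 4 higher and 1 lower in AML, against 8.78% of all genes, with a median of 0.00. Lrpprc, which stabilizes mitochondrial mRNAs, was at 37.7 and 33.5 CPM in AML Nes-GFP high and 0 and 0.993 CPM in normal, with adjusted p = 0.282 by edgeR. Trmt10c, a subunit of mitochondrial RNase P, was at 25.3 and 48.2 CPM against 0 and 0.567 CPM, with adjusted p = 0.279 by edgeR. Tfam, which packages mitochondrial DNA and starts its transcription, was at 57 and 29.9 CPM against 0 and 2.27 CPM, with adjusted p = 0.321 by edgeR. All 3 were at 0 in normal high replicate 1, the library with 14842 genes detected, and between 0.567 and 2.27 CPM in normal high replicate 2, with 18487. The part of gene detection in these values was not tested.

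In Nes-GFP low, Lrpprc and Tfam had log2 fold changes of -1.28 ± 1.03 and -0.35, the latter with an unadjusted p of 0.736 by edgeR. Polrmt, the mitochondrial RNA polymerase, was at -0.04 ± 1.08 in Nes-GFP low and 0.11 ± 1.67 in Nes-GFP high. Slirp, the partner of Lrpprc, was at -0.36 ± 0.51 and 0.08 ± 0.78. Rexo2, a nuclease that degrades short RNAs, and Supv3l1, a helicase of the RNA degradosome, had the smallest p-values in Nes-GFP low, at -0.64 ± 0.40 and -1.76 ± 1.31.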

How the data were processed

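Per the labels and the study's methods, Nes-GFP+ cells were sorted and RNA was amplified with Smart-seq2, which primes on poly(A), records no strand and uses no molecular identifiers. The submitters' processing notes name Trim Galore 0.4.1, TopHat2 2.1.0, featureCounts and DESeq2 1.14.1, with mouse mm10 (GRCm38). The authors deposited raw counts per gene symbol for 16 libraries. Of these columns, 2 match no labelled sample and were not used. How reads that match several places were counted is not given in the sources used here.

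Members and lists were chosen with earlier results of these data known. Counts were fitted with edgeR 4.0.16 in R 4.3.3 (TMM, filterByExpr with a minimum count of 10, quasi-likelihood, 1 model of 4 groups, 18152 genes, Benjamini-Hochberg over all). Named genes were all protein and rRNA genes, tRNAs with a mean of at least 10 CPM, Tfam, Polrmt, Lrpprc, Slirp, and the 2 smallest p-values of each nuclear list per population. Ratios used log2 of counts plus 0.5. Nuclear copies were found with BLAST against GENCODE M21 transcripts (near-identical: at least 99% over at least 100 bases). Alternatives were DESeq2 1.42.0, its size factors, scaling to nuclear genes, no filter, a replicate block, only the groups compared, each library left out, other ratio settings and, added after the data were seen, copies added to their genes. Scripts were tested on simulated data.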

Additional observations from a re-analysis of the deposited data

Results flagged for a closer look

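Dixon's test on the largest gap was applied to 60 combinations of a measure and a group (AML Nes-GFP low or normal Nes-GFP low), and 6 passed its 95% critical value. Chance gives about 1 in 20. In AML low replicate 4, the library of lowest depth, mt-Ts1 was at 313 CPM against 202 to 211 in the other 3, mt-Nd3 was at 47.1 CPM against 4.4 to 11.3, and mt-Tq was at 1.14 CPM against 0.277 to 0.4. In AML low replicate 2 the ratio of mt-Co1 to mt-Co3 was 8.3 against 2.61 to 3.4. In normal low replicate 3 the ratio of mt-Atp6 to mt-Co3 was 0.737 against 0.958 to 1.03. In normal low replicate 6 mt-Tp was at 1.72 CPM against 0.429 to 0.912 in the other 5.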

How the results depend on the processing

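The counts of mitochondrial genes called (0 in each of 7 comparisons) and of ratios past the threshold (0 of 18) stayed at 0 under every alternative run, including DESeq2, each library left out and the copies added. Deviations of same-numbered AML and normal Nes-GFP low libraries correlated at 0.23, 0.06, 0.37 and -0.12. A block by replicate number left every count at 0. That block does not follow the likeness between libraries described next, so it cannot show how that likeness bears on the counts. Normal low replicates 1 and 2, 3 and 4, and 5 and 6 were more alike than other pairs. The chi-square of their counts per degree of freedom was 89.7, 119 and 114, against 219 to 388.5. AML low replicate 1 correlated with normal low replicates 1 and 2 at 0.23 and 0.31. AML low replicate 3 correlated with 3 and 4 at 0.37 and 0.18. AML low replicate 4 correlated with 5 and 6 at 0.20 and 0.20. The tests treat these libraries as independent. The sign turned in few cases other than leaving out a library. mt-Co1 became 0.0105 in Nes-GFP low and mt-Nd3 -0.0949 with the replicate block, mt-Co1 in Nes-GFP high became -0.022 by DESeq2 or its size factors, and mt-Atp6 over mt-Co3 in Nes-GFP low became -0.0919 with medians. Leaving out 1 library turned the sign of 19 of 61 results, a total that includes the counts of calls, which have no sign. In Nes-GFP low the log2 fold changes ran from -0.89 to 0.17 for mt-Rnr1, -0.44 to 0.12 for mt-Rnr2, -0.13 to 0.0507 for mt-Co1, -0.44 to 0.24 for mt-Co2, -0.47 to 0.0055 for mt-Atp6, -0.48 to 0.13 for mt-Co3, -0.95 to 0.57 for mt-Nd3 and -0.24 to 0.56 for mt-Nd6. In Nes-GFP high they ran from -0.31 to 0.36 for mt-Rnr1, -0.71 to 0.30 for mt-Rnr2, -0.13 to 0.31 for mt-Co1, -0.77 to 0.086 for mt-Atp6, -0.39 to 1.98 for mt-Nd3 and -0.22 to 1.16 for mt-Nd5. The log2 differences ran from -0.20 to 0.13 for mt-Rnr1 over mt-Rnr2 within both populations, -0.26 to 0.45 for mt-Rnr2 over mt-Nd1 between high and low, -0.0618 to 0.49 and -0.14 to 0.28 for mt-Co1 over mt-Co3 (AML in low, then high against low), and -0.17 to 0.33 for mt-Atp6 over mt-Co3 in low. Leaving out 1 library moved 28 other values by more than 1.5 times without turning their sign. The cause was not tested.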

Other observations

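mt-Co1 varied least of the 15 rRNA and protein genes over the 14 libraries, with a coefficient of variation of 11.5% on TMM-normalized CPM. Among the 1892 other genes averaging 100 CPM or more, 1 had a lower value, and their median was 53.6%. On CPM without TMM its value was 19.8%, and 8 of 1878 other genes were lower. mt-Co1 averaged 4450 CPM, and the other genes were not matched to it by level. Its level is also uncertain, since Gm29216 and Gm13340 hold counts of like sequence. mt-Nd3 varied most of the 15, at 72.8%.

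The 4 libraries with the highest mitochondrial share were also the 4 with the highest summed erythroid markers, a pattern seen after the values were known. The same 4 had the highest summed level of the nuclear subunits of complexes I to V, at 12612 to 24169 CPM. The next library was at 12018.5 CPM. AML low replicate 4 had a share of 3.95% and 2511 CPM of erythroid markers, normal low replicate 6 had 3.40% and 3552 CPM, normal low replicate 5 had 3.22% and 3629 CPM, and normal high replicate 1 had 3.20% and 2681 CPM. In that order these libraries held 5615941, 8552218, 8904252 and 8213690 counts. Of the others, only normal high replicate 2 was below 8904252 counts, at 8645274 with a share of 2.20%. Normal low replicate 6, AML low replicate 4 and normal high replicate 1 had the highest endothelial sums, at 75.8, 48.4 and 46.1 CPM. Normal low replicate 5 was at 24.6 CPM. Normal low replicates 5 and 6 were also among the more alike pairs. Normal low replicate 4, next in erythroid markers at 2193 CPM, had a share of 2.16%. The study's methods name Ter119, a red cell marker, in the negative gate, whereas the labels name lysis of red cells and no Ter119. The part of erythroid cells, of other cells or of depth in the mitochondrial share was not tested.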
